A study of Arabidopsis thaliana with 27 samples.

Results

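The loci described here are 36 rows of an Arabidopsis thaliana gene expression table, out of 33039 rows in all, that were transcribed in the S364P line but were near 0 in wild type and in an ELF3 T-DNA insertion line. The S364P line has proline in place of serine 364 in EARLY FLOWERING 3 (ELF3), a component of the evening complex of the circadian clock that represses genes in the evening and takes part in the response to temperature. They were chosen by a mean of at least 1 TPM over the 9 S364P libraries and a mean below 0.1 TPM over the 18 wild-type and insertion-line libraries. TPM divides the reads of a transcript by its length and scales each library to the same total. The higher level in S364P libraries is thus how the loci were found, and it is given below as a description, with no test. The same rule picked 25 rows that were high in the insertion line alone and 21 that were high in wild type alone.

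Seedlings of 3 genotypes were each sampled at 16, 22 and 29 °C, with 3 libraries in each of the 9 groups: the S364P line, named ELF3-16 in the protocol, the insertion line, ELF3-101, and Columbia wild type. The labels place both mutants in a Columbia context, speak of natural genetic variation and name no backcross, so the changed residue and anything else the S364P line carries cannot be told apart. Sampling times of 8, 16 and 24 h after lights on (Zeitgeber time) are listed in the same order as 16, 22 and 29 °C, so temperature and time of day cannot be told apart either. No plant age is given in the labels, and nothing says that replicates came from separate plantings, so every p-value rests on a spread between libraries that may be technical. ELF3 transcripts averaged 30.7 ± 1.60, 46.9 ± 0.813 and 69.8 ± 2.23 TPM in S364P seedlings at 16, 22 and 29 °C, 32.3 ± 1.60, 35.3 ± 3.83 and 39.7 ± 1.98 TPM in the insertion line, and 27.1 ± 1.97, 20.4 ± 2.54 and 40.3 ± 1.38 TPM in wild type (SD, n = 3 each). The insertion line was not below wild type beyond the spread between libraries at any temperature, and a level per gene checks neither a changed residue nor the place of an insertion.

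Plant genomes hold many transposable elements, mobile DNA that is normally kept silent. Copia-type and Ty3-type long terminal repeat (LTR) retrotransposons copy themselves through RNA with a gag protein and a Pol polyprotein of protease, integrase and reverse transcriptase, and carry the same repeat at both ends. Non-LTR retrotransposons also use reverse transcriptase but have no such repeats, while DNA transposons of the En/Spm type move as DNA by means of a transposase. In Arabidopsis, DNA methylation kept up by MET1 and DDM1, small-RNA-guided methylation through DRM2, and histone marks hold such elements silent, and elements often differ in position and number between natural accessions.

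Retrotransposon sequences were the most frequent annotation among the loci. In the description and Gene Ontology text, 16 of the 36 carried a transposon term, 44.4% of them against 0.826% of all rows. The background of 273 rows included 84 genes of the AP2 transcription factor kind whose text reads integrase-type, and 189 rows without them. When protein database hits and Pfam domains were read too, a choice made after seeing the data, 19 of the 36 carried such a term against 451 of all rows. The Gene Ontology term DNA integration was held by 14 of the loci and by 77 rows in the table.

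The most common kind was the assembled locus, a transcript model built from reads with an MSTRG name and no annotated gene. There were 18 among the 36 loci, out of 207 in the table, and 17 of these 18 carried a transposon term in the wider reading, against 47 of the 189 other assembled loci. Their median length was 3450.5 bases, against 1104 for the other assembled loci and 1289 for all rows. A Pfam reverse transcriptase domain of the copia kind (RVT_2) was found in 9 of them, out of 20 rows in the table, and an LTR retrotransposon gag domain in 13, out of 43. The best SwissProt match was the Arabidopsis copia element RE1 for 9 of them, out of 18 rows, and RE2 for 3, out of 5. The exception, MSTRG.18764, matched L-lactate dehydrogenase, an enzyme of fermentation. The files hold no sequence for assembled loci.

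The annotated genes among the 36 were a mixed set. AT2G41590 and AT2G16676 are described as Ta11-like non-LTR retrotransposons, and AT2G17920 as a nucleic acid and zinc ion binding protein. AT1G27570 has a phosphatidylinositol 3- and 4-kinase domain, and AT4G36100 is named as a Sec1/munc18-like protein. The SwissProt match of AT4G36100 is the SEC1 family protein SLY1, but its only Pfam domain is DUF641, of unknown function. AT4G18150 is named as a putative serine/threonine kinase with a DUF1296 domain, and AT1G27565 has no function given. AT4G15096 has no description. Its Gene Ontology terms include dioxygenase activity, transcription factor activity, far-red light signaling and positive regulation of circadian rhythm. The same row has no Pfam domain and no SwissProt match, and its protein database hit is a hypothetical protein, so nothing else in it bears these terms out. AT2G01422 and AT1G06407 are long noncoding RNA genes. The last 8 were genes of 92 to 123 bases, among them the microRNA genes MIR167b (AT3G63375) and MIR166f (AT5G43603), 4 small nucleolar RNA genes and ATCG00290, a chloroplast gene with the Gene Ontology terms of a transfer RNA.

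AT2G41590, AT2G17920 and AT2G16676, all on chromosome 2, had the same pair of Pfam domains, DUF4283 and a CCHC zinc knuckle, which 28 and 19 rows of the table carry. The knuckle is a short zinc-binding loop found in retroelement proteins that bind nucleic acid. The assembled locus MSTRG.19959 carried the same pair of domains, but no sequence is available for it. The coding sequences of the knuckle in the 3 annotated genes, from the RefSeq TAIR10.1 genome, are shown because these genes share it beyond their levels. They are written 5′ to 3′, with the codons of the zinc-binding cysteines and histidine in capitals.
AT2G41590: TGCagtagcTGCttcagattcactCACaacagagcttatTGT
AT2G17920: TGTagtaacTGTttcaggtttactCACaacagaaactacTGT
AT2G16676: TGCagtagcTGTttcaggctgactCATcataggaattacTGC
All 3 spell CX2CX4HX4C over 42 bases, and the pairs had 33, 30 and 32 equal bases (AT2G41590 with AT2G17920, AT2G41590 with AT2G16676, and AT2G17920 with AT2G16676). Over the whole transcripts, AT2G17920 and AT2G41590 matched at 69.3% over 848 bases, so they are relatives and not near-identical copies.

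AT4G15096 had the same repeat at its start and just after its end, as an LTR element would, although its row has no transposon term and no Pfam domain. Whether it is an LTR element was not tested. The first 300 bases of its transcript occur again 21 bases after the transcript's end in the TAIR10.1 genome, with 1 difference. A copy of the whole 2458 bases lies on chromosome 2 at 99.7% identity, also followed by the repeat, with 0 differences between its own 2 repeats. The repeat is shown because both repeats of both copies are alike but for the position in capitals. AT4G15096 was followed up after its values were seen.
AT4G15096 repeat: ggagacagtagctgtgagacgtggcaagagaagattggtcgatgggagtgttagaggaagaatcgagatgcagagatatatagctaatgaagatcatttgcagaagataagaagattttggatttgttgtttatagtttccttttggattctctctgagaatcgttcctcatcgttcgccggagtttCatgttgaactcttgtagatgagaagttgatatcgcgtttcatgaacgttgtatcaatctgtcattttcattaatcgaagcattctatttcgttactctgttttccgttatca
The copy covers 2391 exon bases of AT2G40955, and its second repeat lies whole in the exons of the next gene, AT2G40960, on the same strand. Reads from the repeat cannot be assigned to a copy by sequence. At 99.7% identity over the 2458 bases, the same holds for most other reads of either copy. The separate levels of AT4G15096 and AT2G40955 are thus uncertain. Among the 17 annotated members with a locus in RefSeq, no other had a single aligned stretch of at least 95% identity over at least 80% of its length. AT1G27565 matched AT1G52905 in 2 stretches, of 62.9% and 37.1% of its length, at 98.1% and 98.4% identity, so it too has a near-identical copy.

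In all, 28 of the 36 loci were above 0 TPM in all 9 S364P libraries, and for each of these 28 the lowest S364P value was above the highest value in the 18 wild-type and insertion-line libraries. Of the 36, 22 were listed at 0 in all 18 of those libraries, and the highest value in any of them was 0.50 TPM, for AT1G06407 in a wild-type library at 29 °C. Summed over the 36 loci, S364P libraries held 353 to 464 TPM and the other libraries 0.17 to 1.22 TPM. The plot of levels by library shows this split, with the 8 short genes set apart at its foot.

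**Figure D1:**
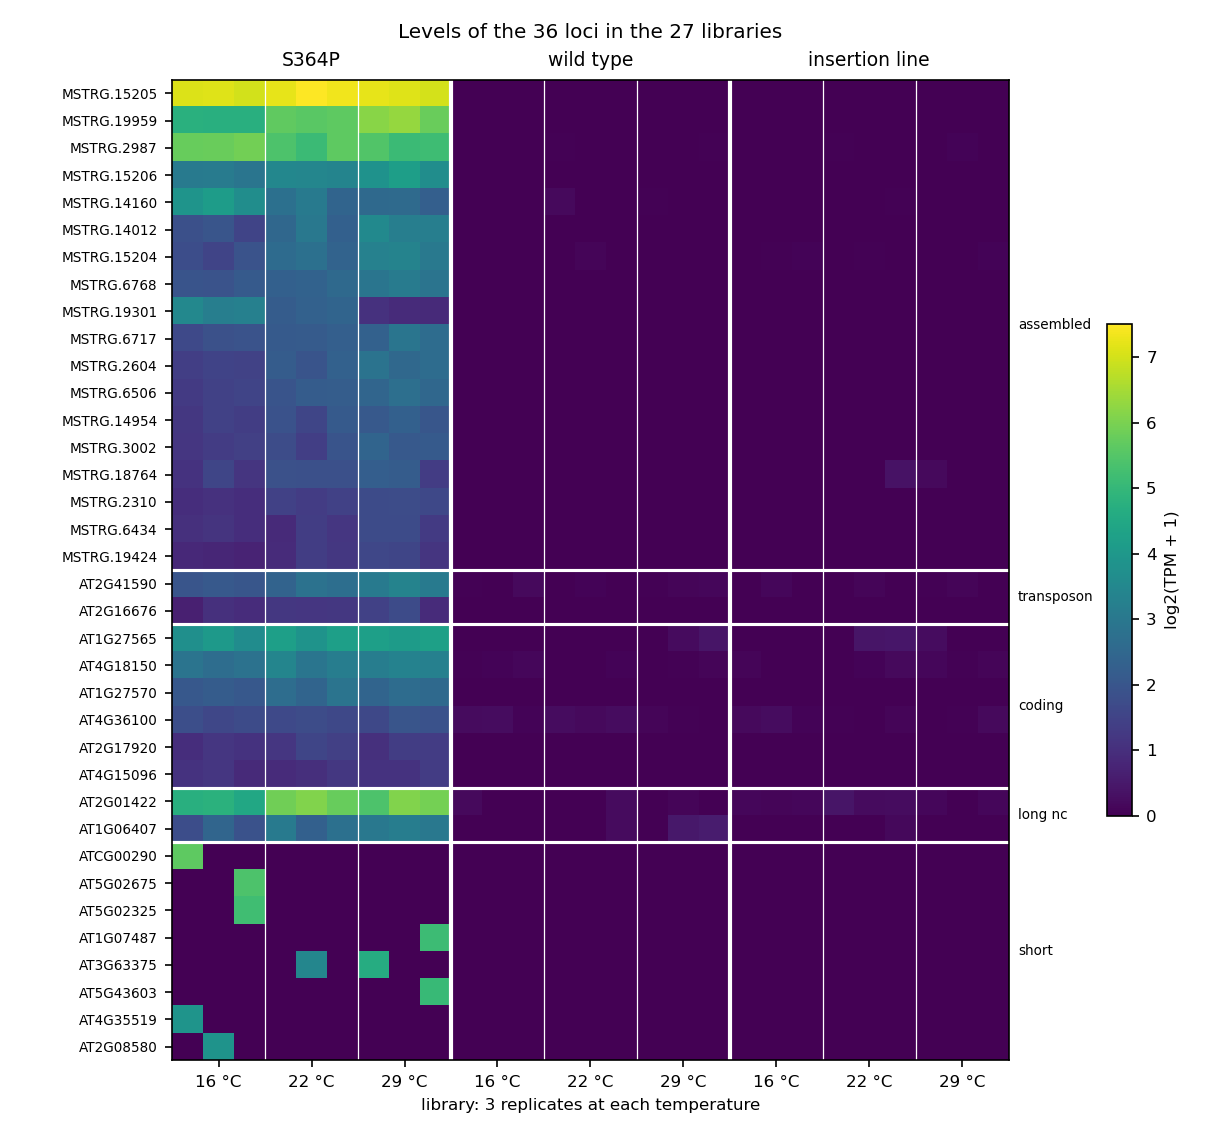
Levels of the 36 loci (rows) in 27 libraries (columns), as log2(TPM + 1) on a colour scale, with S364P libraries on the left, then wild type, then the insertion line, and temperature from 16 to 29 °C within each. The 28 loci above the last white line were above 0 in all 9 S364P libraries, and the 8 short genes below it in 1 or 2.

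The 8 short genes differed from the rest. All 8 were listed at 0 in the 18 libraries of the other lines, and 7 of the 8 were above 0 in 1 S364P library alone. ATCG00290 was at 49.45 TPM in S364P replicate 1 at 16 °C and 0 in the other 8 S364P libraries, while AT5G02675 and AT5G02325 were at 41.49 and 35.95 TPM in replicate 3 at 16 °C. AT1G07487 and AT5G43603 were at 34.10 and 31.96 TPM in replicate 3 at 29 °C, AT4G35519 at 13.79 TPM in replicate 1 and AT2G08580 at 13.42 TPM in replicate 2 at 16 °C. MIR167b was above 0 in 2 libraries, at 9.88 TPM in replicate 2 at 22 °C and 23.88 TPM in replicate 1 at 29 °C. Genes of this length also made up 24 of the 25 rows found for the insertion line and 19 of the 21 found for wild type, where 21 and 14 rows were above 0 in a lone library. None of these 46 rows was an assembled locus or carried a transposon term.

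Among the rows picked for the other genotypes, 1 in each was above 0 in all 9 of its libraries. AT3G44006 averaged 1.24, 1.51 and 2.38 TPM in the insertion line at 16, 22 and 29 °C, and AT1G54420 averaged 1.43, 4.39 and 3.76 TPM in wild type. So the rule applied to the S364P line gave 28 loci present in all 9 libraries, and 1 each in the insertion line and wild type.

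The copia-type loci spanned the widest range of levels. MSTRG.15205, a gag-bearing RE1-like locus, was at 137.55, 138.90 and 125.57 TPM in the S364P libraries at 16 °C, at 150.23, 180.58 and 160.59 at 22 °C, and at 149.12, 139.89 and 129.00 at 29 °C, and was listed at 0 in all 18 other libraries. It was the highest of all 36. The loci named next to it, MSTRG.15206 with an RE2-like reverse transcriptase and MSTRG.15204 with an RE1-like gag, were lower, at 6.53 to 17.31 TPM and 1.90 to 9.32 TPM over the 9 S364P libraries. Their names are consecutive, but their positions are not in the files.

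MSTRG.2987, with copia-type gag domains, was at 53.58, 54.79 and 58.65 TPM at 16 °C, 41.07, 33.61 and 48.94 at 22 °C and 43.25, 33.85 and 34.89 at 29 °C in the S364P line, with at most 0.06 TPM elsewhere. MSTRG.14160, RE1-like with gag, was at 13.85, 16.57 and 11.82 TPM at 16 °C, 5.87, 7.31 and 4.38 at 22 °C, and 4.88, 4.98 and 3.86 at 29 °C. MSTRG.19301, RE2-like with gag, was at 10.44, 8.21 and 8.64 TPM at 16 °C, 3.55, 4.0 and 4.40 at 22 °C, and 1.11, 0.90 and 0.85 at 29 °C. In these 3 loci the libraries at 16 °C were above all those at 29 °C. The longer copia-type loci with reverse transcriptase domains (MSTRG.6768, MSTRG.6717, MSTRG.2604, MSTRG.6506, MSTRG.14954, MSTRG.2310, MSTRG.6434 and MSTRG.19424) had means of 1.26 to 4.73 TPM over the 9 libraries. MSTRG.3002, which matched the Gag-Pol polyprotein of the yeast element Ty3, had 1.30, 1.53 and 1.68 TPM at 16 °C, 2.37, 1.62 and 2.84 at 22 °C and 4.37, 3.27 and 3.34 at 29 °C.

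Other element kinds were present too. MSTRG.19959, with a reverse-transcriptase-like domain and the zinc-binding region of non-LTR elements, was at 26.05, 25.66 and 25.40 TPM at 16 °C, 50.21, 47.42 and 48.82 at 22 °C, and 71.29, 79.29 and 54.09 at 29 °C in the S364P line, with at most 0.01 TPM in the other lines. The 3 temperatures did not overlap. MSTRG.19959 also carried the DUF4283 and zinc knuckle domains found in AT2G41590. MSTRG.14012, matched to an En/Spm-type transposase of Arabidopsis suecica, was at 2.55, 2.91 and 1.90 TPM at 16 °C, 4.72, 7.06 and 3.88 at 22 °C, and 10.82, 8.34 and 8.17 at 29 °C. The Ta11-like AT2G41590 was at 2.91, 3.31 and 3.04 TPM at 16 °C, 4.24, 6.16 and 5.50 at 22 °C, and 7.58, 9.34 and 7.45 at 29 °C, also without overlap. The other annotated genes with the zinc knuckle were lower, with means of 1.38 TPM for AT2G17920 and 1.27 TPM for AT2G16676 over the 9 S364P libraries. Both were listed at 0 in the 18 others.

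Of the noncoding RNAs, AT2G01422 was at 25.76, 26.82 and 21.49 TPM at 16 °C, 57.23, 67.35 and 53.16 at 22 °C, and 41.27, 67.20 and 60.70 at 29 °C in the S364P line, and at most 0.34 TPM elsewhere. It was higher at 22 and 29 °C than at 16 °C, and the libraries at 22 and 29 °C overlapped. AT1G06407 was at 2.41, 4.51 and 2.73 TPM at 16 °C, 7.43, 3.92 and 5.82 at 22 °C, and 6.96, 8.09 and 7.09 at 29 °C. Its groups at 16 and 22 °C overlapped. AT2G01422 matched a stretch of AT3G28900, a ribosomal protein L34e gene, at 90.2% over 458 bases, and that gene averaged 125 TPM in S364P, 126 TPM in wild type and 128 TPM in insertion-line libraries.

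Of the protein-coding genes, AT1G27565 was at 12.38, 15.84 and 11.59 TPM at 16 °C, 17.97, 13.36 and 17.91 at 22 °C, and 17.75, 16.45 and 18.21 at 29 °C in the S364P line, with at most 0.38 TPM elsewhere. It matched AT1G52905 at 98.1% over 324 bases and 98.4% over 191 bases, so reads may be split between them. AT1G52905 averaged 23.5 TPM in S364P, 24.4 TPM in wild type and 26.8 TPM in insertion-line libraries. AT1G27570 is the next member along the chromosome, 349 bases from AT1G27565, and had 3.18 to 6.40 TPM in the 9 S364P libraries. No other pair of annotated members were neighbours in the annotation. AT4G18150 was at 6.38, 5.48 and 6.16 TPM at 16 °C, 9.72, 6.62 and 8.09 at 22 °C, and 8.14, 8.95 and 8.57 at 29 °C. AT4G36100 averaged 2.34 TPM over the S364P libraries and 0.0939 TPM over the 18 others, the highest such mean among the members. It matched a stretch at AT4G34090 and AT4G34080 at 99.5% over 379 bases, and AT2G45260 at 97.8% over 323 bases, so reads may be split here too. AT4G34090 averaged 58.8 TPM in S364P, 67.5 TPM in wild type and 48 TPM in insertion-line libraries.

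**Figure D2:**
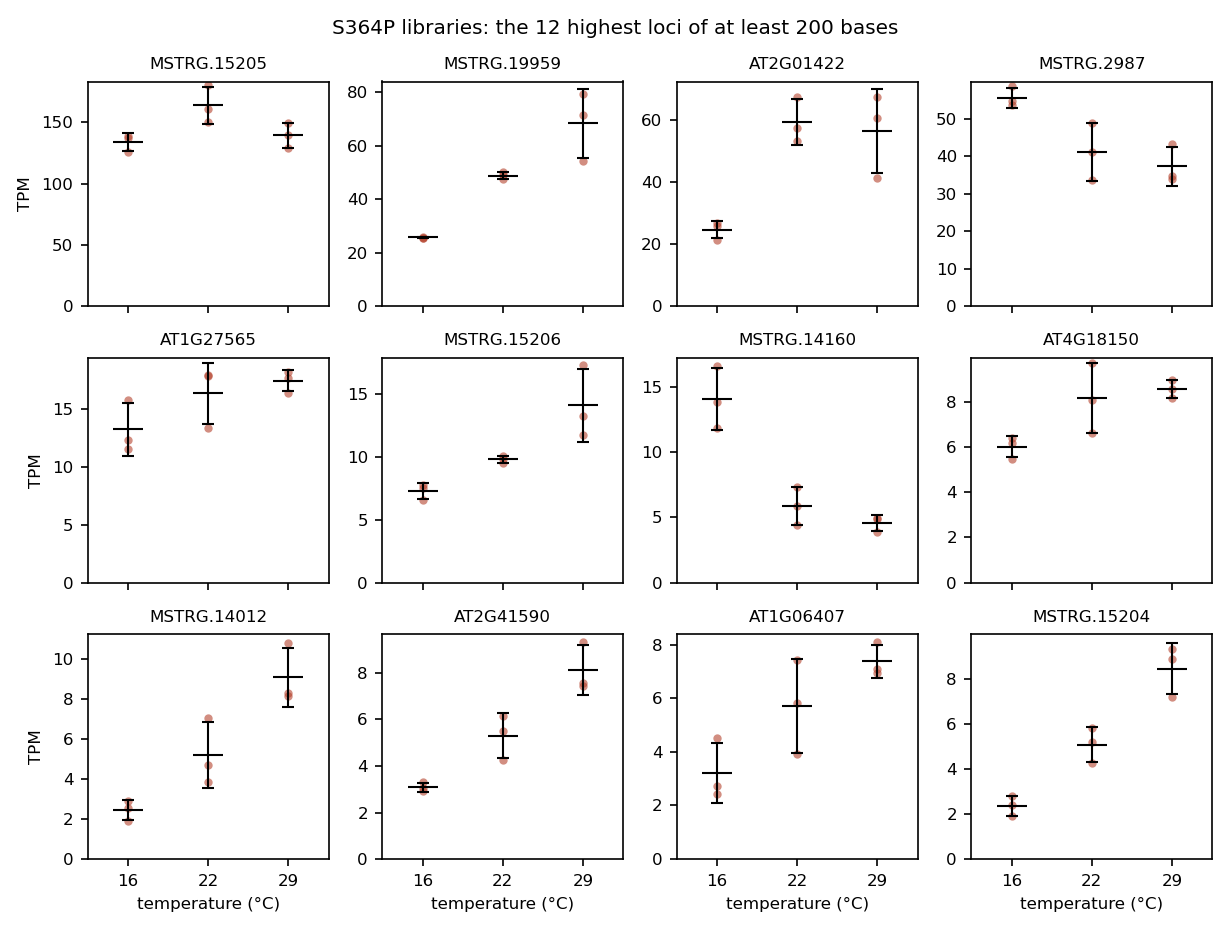
Level in TPM (each panel on its own axis from 0) by temperature for the 12 highest loci of at least 200 bases in S364P libraries. Points are libraries and bars are mean ± SD (n = 3). MSTRG.2987 and MSTRG.14160 were lower at 22 and 29 °C than at 16 °C, MSTRG.15205 was highest at 22 °C, and MSTRG.19959 was higher at each temperature step.

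The thresholds of the rule cut through a continuous range. Just inside the S364P minimum were AT4G15096, MSTRG.19424 and AT2G16676 at 1.15, 1.26 and 1.27 TPM, and just outside it the microRNA genes MIR848, MIR166c and MIR5631 at 0.912, 0.864 and 0.586 TPM. Just inside the limit for the other lines were AT4G36100, AT2G01422 and AT1G27565, at 0.0939, 0.0839 and 0.0772 TPM. Just outside it were AT1G31095 with a mean of 8.50 TPM over S364P libraries against 0.101 TPM over the others, MSTRG.19886 with 7.45 against 0.109 TPM, and the noncoding RNA AT4G34071 with 2.79 against 0.116 TPM.

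Temperature was not used by the rule, so differences between temperatures within the S364P line could be tested. The test was limma on log2(TPM + 1), fitted on the 21396 rows that reached 1 TPM in 3 or more libraries, with a call at an adjusted p under 0.05 (Benjamini-Hochberg over all rows). Of the 36 loci, 28 passed that filter, all through S364P libraries, and the 8 short genes did not. Because these loci are near 0 in the other 18 libraries, which give most of the residual degrees of freedom, their spread is understated in the fit of all 27 libraries, so counts from the 9 S364P libraries alone, a fit added after seeing the data, are given beside it.

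From 16 to 22 °C most of the tested loci rose. In S364P seedlings at 22 °C against 16 °C, 20 of 28 were called higher and 3 lower, 82.1% in all, against 55.2% of all rows called (33.1% higher and 22.1% lower). With S364P libraries alone, 15 were called higher and 3 lower, against 55.4% of rows (33.8% higher and 21.5% lower). AT2G01422 rose by 1.23 ± 0.135 (log2 difference ± SE, adjusted p = 1.01e-07), MSTRG.19959 by 0.90 ± 0.0915 (adjusted p = 3.29e-08), MSTRG.15204 by 0.86 and MSTRG.14012 by 0.83. Smaller rises were those of MSTRG.2604 (0.69), MSTRG.6506 (0.69) and AT1G06407 (0.67). MSTRG.14160, MSTRG.19301 and MSTRG.2987 were the 3 that fell, by 1.15, 1.02 and 0.44 on the log2 scale. The calls lost with S364P libraries alone were those of MSTRG.3002, MSTRG.6717, MSTRG.18764, MSTRG.19424 and AT2G17920. With a pseudocount of 0.1 TPM, the fit of 27 libraries called 8 members, while S364P libraries alone called 19.

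From 22 to 29 °C fewer moved, and the share called was close to that of all rows. In S364P seedlings at 29 °C against 22 °C, 12 of 28 were called higher and 2 lower, against 53.7% of rows (43.3% higher and 10.4% lower). With S364P libraries alone there were 11 and 2 (43.1% and 10.6% of rows). The split depended on scaling, since median-of-ratios scaling gave 7 higher and 5 lower, and it took the median of all rows to 0.0187, against 0.222 for TPM as deposited. MSTRG.19301 fell by 1.35 ± 0.0993 (adjusted p = 3.16e-10) and MSTRG.15205 by 0.23 ± 0.0678 (adjusted p = 0.0068). The call of MSTRG.15205 was lost without S364P replicate 2 at 22 °C (adjusted p = 0.0756) or replicate 3 at 29 °C (adjusted p = 0.0516), and in a fit of the 6 libraries alone (adjusted p = 0.0628). MSTRG.14012, MSTRG.15204, MSTRG.6768, MSTRG.2604 and AT2G41590 rose by 0.72, 0.64, 0.57, 0.54 and 0.54, and MSTRG.3002, MSTRG.15206 and MSTRG.19959 by 0.52, 0.47 and 0.46. The call of MSTRG.6434 was lost with S364P libraries alone, and a pseudocount of 0.1 TPM left 3 calls in 27 libraries and 12 in S364P libraries alone.

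Over the whole range, in S364P seedlings at 29 °C against 16 °C, 21 of 28 were called higher and 3 lower, 85.7% against 71.6% of rows (50.7% higher and 20.9% lower), and S364P libraries alone gave 20 and 3 (72.2% of rows, 51.5% higher and 20.7% lower). The largest rises were of MSTRG.14012 (1.55 ± 0.143), MSTRG.15204 (1.49 ± 0.115), MSTRG.19959 (1.36 ± 0.0915), MSTRG.2604 (1.23), AT2G41590 (1.15), MSTRG.6506 (1.14) and AT2G01422 (1.14), and the 3 falls were of MSTRG.19301 (-2.37 ± 0.0993), MSTRG.14160 (-1.43 ± 0.132) and MSTRG.2987 (-0.57 ± 0.102). MSTRG.15205 differed by 0.05 (adjusted p = 0.48), and by -0.28 with median-of-ratios scaling (adjusted p = 0.00085). AT4G15096 and AT4G36100 were called in none of the 3 comparisons. The median over the 28 loci was 0.67, against 0.29 over all rows and 0.63 over 185 other assembled loci tested. Median-of-ratios scaling took the median of all rows to 0.00416 and called 17 of the 28 higher and 4 lower. Copia-type loci were on both sides, since MSTRG.15204 and MSTRG.14160 share an RE1-like match and gag domains and moved in opposite directions.

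**Figure D3:**
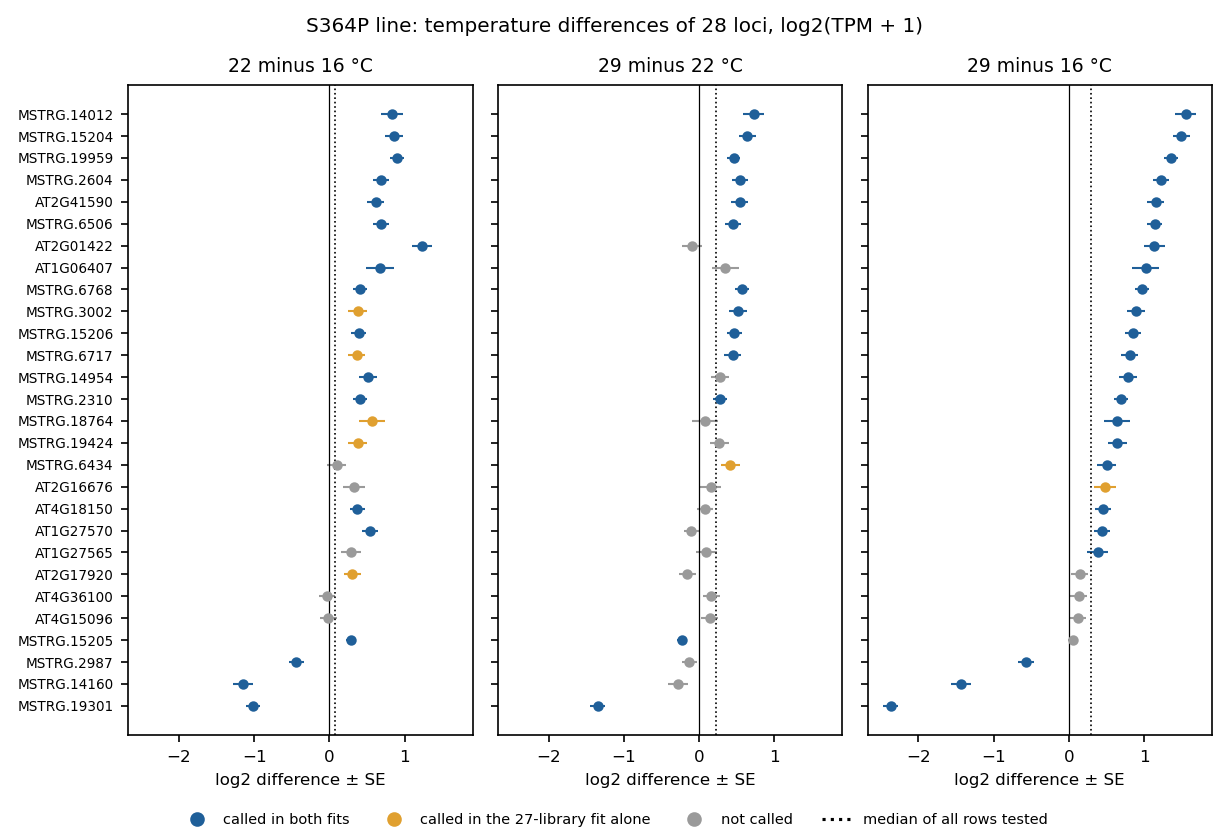
Log2 differences ± SE between temperatures within the S364P line for the 28 tested loci, ordered by the difference between 29 and 16 °C, with the median of all rows dotted. Blue points were called in the fit of 27 libraries and with S364P libraries alone, orange points in the fit of 27 libraries alone and grey points in neither, and MSTRG.19301, MSTRG.14160 and MSTRG.2987 lie left of 0 in all 3 panels.

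Across the 9 S364P libraries, profiles of the 28 loci had a median pairwise Pearson's r of 0.623 in log2(TPM + 1) over 378 pairs, from -0.964 to 0.983. This is a description, since all pairs share libraries and temperatures. Transcript composition moved with temperature in the same libraries. The summed level of 5 leaf photosynthesis genes had medians of 57295, 46702 and 17596 TPM in S364P libraries at 16, 22 and 29 °C, against 55480, 48766 and 33593 TPM in wild type, and that of 9 root genes had medians of 160.9, 52.0 and 36.4 TPM against 125, 178 and 83.8 TPM. Much of the root sum at 16 °C was 1 gene, the iron-regulated transporter IRT1. Its means were 116, 10.3 and 4.95 TPM in S364P and 80.7, 121 and 40.2 TPM in wild type. The root genes did not move alike, since in S364P EXP7 was at 9.42, 1.26 and 1.13 TPM and SCR at 23.4, 19.4 and 24.1 TPM. The sum is therefore no measure of root content. The part of leaf and root genes in the temperature differences was not tested.

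Reproductive cells can hold active transposable elements, so their markers were looked at. The 5 pollen and sperm genes summed to 0.50 to 1.61 TPM in S364P libraries and 0.54 to 1.67 TPM in wild type, with 3 of the 5 listed at 0 in every S364P group. The 5 seed and endosperm genes summed to at most 0.46 TPM in 8 of the S364P libraries and to 16.08 TPM in the other, at 29 °C, against 0.13 to 0.62 TPM in wild type. The part of this material in the levels of the loci was not tested.

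The silencing machinery was compared through a list of 56 genes, of which 50 passed the filter on low values and were tested. At 16 °C, 0 of 50 tested silencing genes were called between S364P and wild type, against 1.45% of all rows (0.71% higher and 0.738% lower). At an unadjusted p under 0.05 in limma there were 3. The list held genes of DNA methylation, RNA-directed DNA methylation, post-transcriptional silencing, heterochromatin and DNA demethylation. The maintenance methyltransferase MET1 was at 14.8 ± 0.180 TPM in S364P and 16.6 ± 0.516 TPM in wild type, and the chromatin remodeller DDM1 at 9.41 ± 0.372 and 9.56 ± 0.405 TPM (SD, n = 3 each, adjusted p = 0.774 and 0.999).

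At 22 °C, 6 of the 50 silencing genes were called higher in S364P than in wild type and 1 lower, against 37.1% of rows called (17.3% higher and 19.9% lower). At 29 °C, 13 were called higher and 0 lower, against 38.3% of rows (24.5% higher and 13.7% lower). The shares of the list called in either direction, 14% and 26%, lay below those of all rows. At 29 °C the 26% were all higher, near the 24.5% of all rows called higher. The median difference of the list was -0.03 at 22 °C and 0.12 at 29 °C, against -0.03 and 0.07 over all rows. At 22 °C the largest were DRM2, the methyltransferase of small-RNA-guided methylation, at 13.7 ± 0.222 TPM in S364P, 13.6 ± 1.34 TPM in the insertion line and 10.1 ± 0.137 TPM in wild type (0.41 ± 0.0670, S364P minus wild type), and DRD1, a remodeller of the same pathway, at 0.34, with SGS3 at 0.32 and CLSY1, a remodeller that acts with RNA polymerase IV, at 0.31. At 29 °C they were SGS3, which acts with RDR6 to make double-stranded RNA in post-transcriptional silencing, at 15.2 ± 0.325 TPM in S364P, 16.1 ± 0.401 TPM in the insertion line and 10.2 ± 0.878 TPM in wild type (0.53 ± 0.0696), CLSY1 at 0.42, the dicer DCL2 at 0.37 and the linker histone H1.1 at 0.34. The insertion line was also above wild type in the mean for each of these. At 22 °C, its DRD1 was at 10.8 TPM against 8.42 TPM. At 29 °C, its CLSY1 was at 5.46 against 4.43 TPM, DCL2 at 11.7 against 9.28 TPM and H1.1 at 256 against 197 TPM. Whether any silencing gene bears on the levels of the loci was not tested. Of the 6 untested genes, all under 1 TPM in each group mean, CLSY3 was at 0.71, 0.76 and 0.60 TPM in S364P at 29 °C, 0.94, 0.86 and 0.80 TPM in the insertion line, and 0.32, 0.17 and 0.31 TPM in wild type, with no overlap of either mutant with wild type. The call of CLSY1 at 22 °C was lost without S364P replicate 1 or 3 or wild-type replicate 2 or 3 (adjusted p = 0.0527, 0.121, 0.0631 and 0.073). The call of DCL2 was lost without S364P replicate 1 or 2 or wild-type replicate 3 (adjusted p = 0.0805, 0.0696 and 0.0942). Median-of-ratios scaling gave 7 higher and 3 lower at 29 °C. At 22 °C, 4 were called without S364P replicate 1 or without wild-type replicate 2, and at 29 °C 7 without S364P replicate 2 and 8 without wild-type replicate 3.

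**Figure D4:**
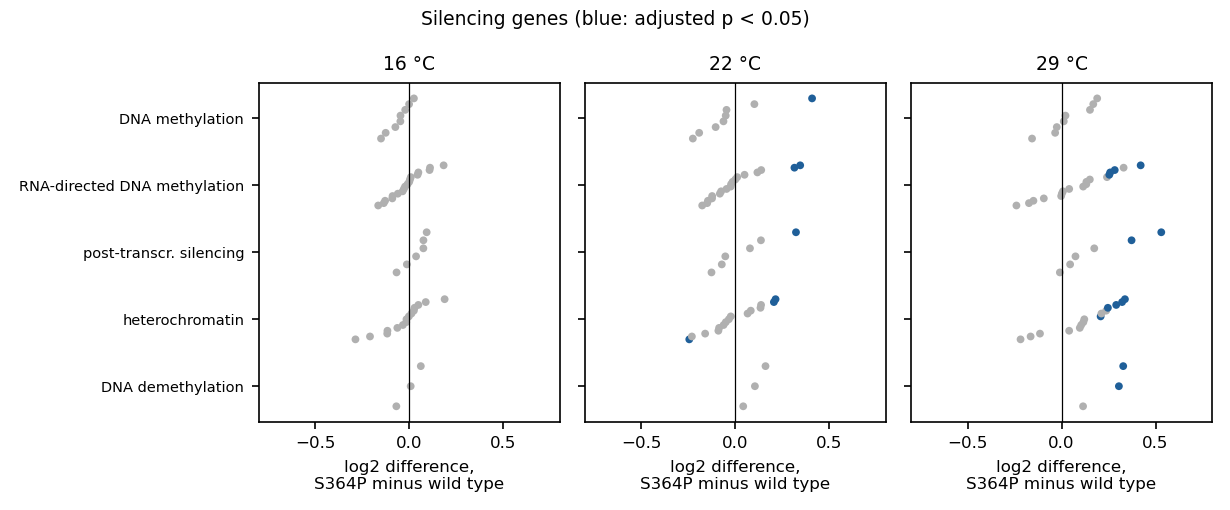
Log2 differences (log2(TPM + 1), S364P minus wild type) of 50 silencing genes at 16, 22 and 29 °C, by group, with called genes in blue. No gene is blue at 16 °C, and all differences lie within 0.53 of 0.

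A short list of genes linked to DNA methylation (FWA, SDC, PHE1 and QQS) was also looked at, and these genes differed among themselves. Their methylation was not tested. FWA, a homeobox gene, was at 0.140, 0.0900 and 0.117 TPM in S364P at 16, 22 and 29 °C and at 0.147, 0.167 and 0.123 TPM in wild type, and the F-box gene SDC was at 0.0833, 0.0733 and 0.153 TPM against 0.170, 0.0933 and 0.163 TPM. The MADS-box gene PHE1 was at 0.113, 0.36 and 0.04 TPM against 0.0867, 0.0533 and 0 TPM. All 3 stayed under 0.5 TPM in both genotypes, though PHE1 at 22 °C was 0.27 to 0.48 TPM in S364P and 0 to 0.11 TPM in wild type, without overlap. The orphan gene QQS was at 148 ± 5.50, 224 ± 19.0 and 242 ± 32.2 TPM in S364P, at 18.2 ± 8.80, 18.1 ± 10.7 and 25.8 ± 3.66 TPM in the insertion line, and at 1.26 ± 0.714, 1.82 ± 0.321 and 2.47 ± 0.474 TPM in wild type (SD, n = 3 each), so it was above wild type in both mutants.

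Genes next to the annotated members were compared between S364P and wild type, since the rule did not use them. Neighbours of the short genes are included, although most short genes were above 0 in 1 S364P library alone. Of 32 neighbouring genes in the table, 20 were tested. The 16 °C comparison called 1 of them, AT1G31095, against 1.45% of all rows. At 22 °C, 5 of the 20 were called, 2 of them higher, and at 29 °C 6 were called, 4 of them higher, or 4 of 8 with median-of-ratios scaling. These shares lay below the 37.1% and 38.3% of all rows called. AT1G31095 was the gene called at all 3 temperatures, but it passed the filter on low values through S364P libraries alone and had to differ, so its levels are a description with no test. It is a gene of 201 bases with a lactate/malate dehydrogenase domain, the domain that MSTRG.18764 also carries. It lies on the other strand from AT1G06407 and shares 13 exon bases with it. It was at 2.83, 2.38 and 3.43 TPM in S364P at 16 °C, 8.13, 8.03 and 8.31 at 22 °C and 15.65, 14.45 and 13.33 at 29 °C, against at most 0.46 TPM in any wild-type library. It just missed the rule itself. Without strand in the sources used here, reads in the shared bases cannot be told apart. The log2 differences of the others called ran from -0.62 for AT1G48460, which overlaps AT1G07487, at 29 °C to 0.43 for AT4G18140, next to AT4G18150, at 29 °C. AT1G48460 (-0.52) and AT4G18140 (0.42) were also called at 22 °C, with AT2G01430 (-0.45) and AT4G18160 (-0.28). At 29 °C AT4G35510 (0.40), AT2G01420 (0.36) and AT1G48450 (-0.31) were called too. AT1G48460 and AT1G48450 lie by AT1G07487, and AT4G35510 by AT4G35519. Both of these members are short genes that were above 0 in 1 S364P library alone. AT2G01430 was lost without any one of S364P replicates 1 and 2 or the 3 wild-type replicates (adjusted p = 0.0519 to 0.136), and AT4G18160 without S364P replicate 2 or wild-type replicate 1 (adjusted p = 0.1 and 0.0645). At 22 °C 3 genes were called without wild-type replicate 1.

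The gene that holds the repeat of the AT4G15096 copy, AT2G40960, which codes for an R3H-domain nucleic acid binding protein, was also higher in S364P. It was at 18.48, 18.97 and 17.32 TPM in S364P at 16 °C, 25.23, 27.35 and 26.79 at 22 °C, and 43.65, 48.79 and 40.08 at 29 °C, against 12.91, 12.50 and 17.46, 11.90, 11.26 and 11.04, and 9.53, 13.51 and 8.85 TPM in wild type at the same temperatures. The S364P and wild-type libraries overlapped at 16 °C (0.35 ± 0.150, adjusted p = 0.46) and did not at 22 °C (1.15 ± 0.150, adjusted p = 3.36e-06) or 29 °C (1.97 ± 0.150, adjusted p = 6.62e-10). AT2G40955, which is covered by the copy, was listed at 0 in the 18 libraries of the other lines and was above 0 in 4 of the 6 S364P libraries at 22 and 29 °C, at 0.29 to 1.77 TPM. AT2G40955 and AT4G15096 are nearly identical in sequence, so reads may be split between them and neither level stands alone. AT4G15096 itself had no called temperature difference, while AT2G40960 rose by 1.23 from 16 to 29 °C in S364P (adjusted p = 1.98e-07). Its 1614 exon bases include the 300 of the repeat, and whether reads in the repeat carry the difference was not tested.

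**Figure D5:**
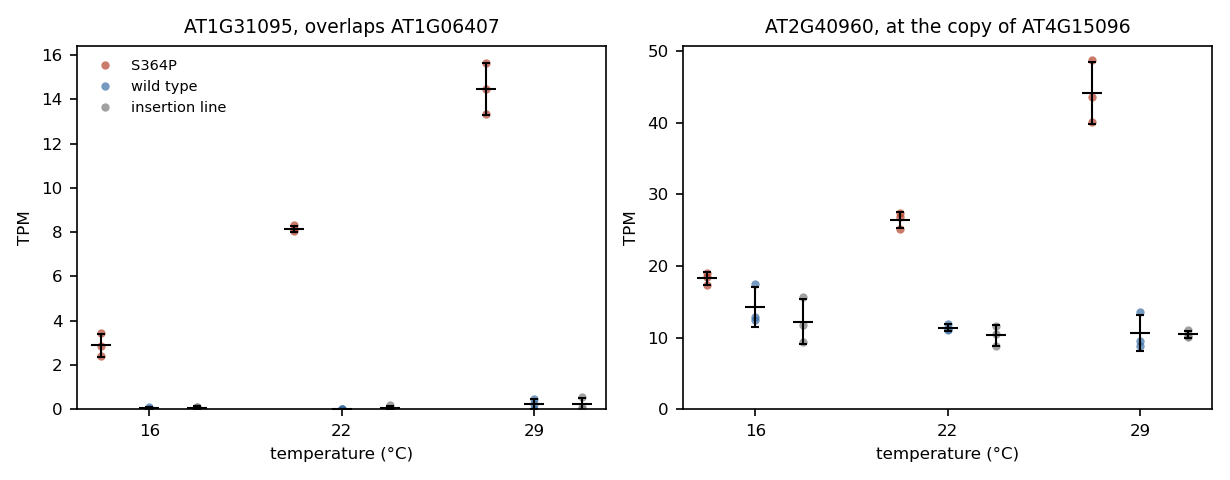
TPM of AT1G31095, which overlaps the member AT1G06407, and of AT2G40960, whose exons hold the repeat of the AT4G15096 copy, by temperature, with S364P left of wild type and the insertion line. Points are libraries and bars are mean ± SD (n = 3). S364P libraries are above all others at 22 and 29 °C in both panels.

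Promoters of the 10 annotated members of at least 200 bases were searched for motifs bound by the evening complex or by light-responsive factors, on both strands from 250 bases before to 50 after the RefSeq start. The evening element AAAATATCT was found at 1 of 10 (AT2G17920), against 2.64% of 32546 genes, the LUX binding site GATACG or GATTCG at 2 of 10 (AT1G27570 and AT4G15096), against 14.5%, and the G-box CACGTG at 0 of 10, against 7.11%. A match is a description of these letters and not a bound site.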

How the data were processed

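Messenger RNA of seedlings was sequenced, and the authors deposited 1 TPM value for each of 33039 rows in 27 libraries, with a transcript length per row and mean columns for 9 groups that match the means of the library columns within 0.0001. The sources used here name no aligner, quantifier, strand setting or genome build, and depth is unknown because TPM keeps none, so no counting interval is given. For the insertion line at 16 °C, 2 columns are tied to the group but to no replicate. Each library had 23430 to 23854 rows above 0.

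The members, gene lists and tests were chosen with earlier results of these data known. Differences were tested with limma 3.58.1 (R 4.3.3) on log2(TPM + 1) over the 21396 rows that reached 1 TPM in 3 or more libraries, with a mean per group, variances moderated with a trend (18 residual and 3.17 prior degrees of freedom), two-sided, Benjamini-Hochberg adjusted, called under 0.05. Every adjusted p is from limma. Named were the 12 highest members over S364P libraries, at most 10 called per temperature comparison, 3 on each side of a threshold, and the largest called silencing genes (4) and neighbours (6) per temperature. Of 32832 AGI rows, 32547 matched RefSeq locus tags, and 99.5% of these had a RefSeq transcript of the length in the table, so TAIR10.1 was used for sequences and neighbours (BLASTN 2.17.0, Biopython 1.88). Other steps used Python 3.11.15 with pandas 2.3.3. Replicate numbers were not used to pair the samples in the main fit. Alternatives were other thresholds, pseudocounts, filters, scaling and sets of libraries, a replicate block, and leaving out each library.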

Additional observations from a re-analysis of the deposited data

How the results depend on the processing

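The rule gave 36 loci, 31 and 41 with limits of 0.05 and 0.2 TPM for the other lines, 44 and 28 with S364P minima of 0.5 and 2 TPM, and 35 to 37 when 1 library was left out. With medians in place of means it gave 57, which held 28 of the 36 and lost the 8 short genes. Called members at 22 against 16, 29 against 22 and 29 against 16 °C were 23, 14 and 24. With a pseudocount of 0.1 TPM they were 8, 3 and 18, and 19, 12 and 23 with that pseudocount and S364P libraries alone. A filter of 5 TPM left 15 members to test and called 12, 8 and 14. Leaving out a library gave 20 to 25, 13 to 17 and 23 to 24. Of the silencing genes, 0, 7 and 13 were called at 16, 22 and 29 °C. Leaving out a library gave 0, 4 to 6 and 7 to 15, and the fit of 2 groups alone called 7 at 29 °C. Of the neighbours, 1, 5 and 6 were called, and leaving out a library gave 1, 3 to 5 and 6. The cause of these changes was not tested. Differences of uncalled members turned sign between 29 and 22 °C for AT1G27565 and AT4G18150 with median-of-ratios scaling (-0.13 and -0.13) and without S364P replicate 2 at 22 °C. When 1 library was left out, AT1G27565 ranged over -0.037 to 0.16, AT4G18150 over -0.048 to 0.20 and AT2G01422 over -0.23 to 0.11, where it turned above 0 without S364P replicate 2 at 22 °C (0.0021) or replicate 1 at 29 °C. MSTRG.15205 at 29 against 16 °C turned to -0.28 with median-of-ratios scaling. The replicate block, fitted on wild-type and S364P libraries, called 23, 14 and 24 members, against 22, 14 and 24 in those libraries without it, and 8 silencing genes at 22 °C both ways. Same-numbered replicates did not deviate together in every pair (r from -0.106 to 0.263). For S364P and wild type at 29 °C, r was 0.197, 0.263 and 0.0469 for the same number and -0.238 to 0.0647 for other numbers. Whether libraries of the same number share a batch was not tested. Neighbours called at 22 °C were 7 with the block and 6 without it. Of 1024 values of single genes under alternatives, 963 kept direction and call. TPM keeps no depth, so values near 0 cannot be told from 0.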

Other observations

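With the rule turned round, 53 rows had a mean below 0.1 TPM over the S364P libraries and at least 1 TPM over the other 18. Of these, 52 were shorter than 200 bases and 0 were assembled loci, and for 0 of them was every S364P library below every other library. AT1G54420, of 363 bases, was the longer row, and it was near 0 in the insertion line too. Thus loci present in all libraries of the other lines and near 0 in the S364P line were not found by this rule.

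Assembled loci as a whole were at 1 TPM or more on average in 179 cases in S364P libraries, 149 for wild type and 154 for insertion-line libraries, of 207 in the table. MSTRG.19886, of 4417 bases, just missed the rule and was at 6.15 ± 0.0757, 6.79 ± 0.939 and 9.42 ± 0.580 TPM in S364P at 16, 22 and 29 °C, against 0.0533 ± 0.0252, 0.117 ± 0.0666 and 0.147 ± 0.0231 TPM in wild type (SD, n = 3 each). AT2G41590 matched a stretch of AT1G35980, a transcribed pseudogene with no row in the table, at 82.4% over 1293 bases, and AT2G16676 matched AT4G04660, of the same kind, at 84.7% over 1270 bases.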
